A study of Rattus norvegicus with 2 samples.

Results

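Of 2543 fragments of 1 Mb on chromosomes 1 to 20 of the rat, 437 (17.2%) had 8-oxoguanine (8-oxoG) levels of opposite sign in the kidneys of 2 rats, above 0 in one animal and below 0 in the other. These opposite-sign fragments were chosen by their measured levels on both arrays. The level of a probe is log2 of the signal of immunoprecipitated (IP) DNA over that of input DNA, minus the median of all probes of the array, so that 0 stands for the median probe and not for a lack of 8-oxoG. A fragment, taken from a grid of rn4 that starts at base 1, was eligible with 20 or more probes, and its level is the mean over its probes. Since the signs made the choice, levels and differences between the rats are described without a test.

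8-oxoG forms when reactive oxygen species oxidise guanine, and it can pair with adenine during replication, which leads to G-to-T changes. The DNA glycosylase OGG1 removes it from DNA, the glycosylase MUTYH removes adenine placed opposite to it, and the hydrolase NUDT1 clears the oxidised nucleotide from the precursor pool. The kidney is rich in mitochondria, above all in its proximal tubules, and is a common tissue for measurements of this lesion.

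Both animals were untreated males of the Wistar strain (written Wister in the labels), kept free of specific pathogens and 5 weeks of age, and they form the single group of normal kidney. DNA came from homogenised kidney tissue without separation of cell types, and was extracted under argon with an iron chelator to limit oxidation. IP DNA was labelled with Cy5 and input DNA with Cy3 (800 ng of each), with 1 array for each rat and without dye swap. A difference between the rats can therefore not be told apart from a difference between 2 precipitations, labellings or hybridisations. Replicate 1 was the brighter array, with median signals of 90.6 (IP) and 89.3 (input), and the medians of replicate 2 were 70.4 (IP) and 70.2 (input). The number of arrays limits the precision.

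The opposite signs lay mostly in one direction. In 359 fragments the level was above 0 on replicate 1 and below 0 on replicate 2, and in 78 it was the reverse, so that 82.2% of them were above 0 on replicate 1. The median fragment was at -0.03 on replicate 1 and at -0.09 on replicate 2. The level of 0 is set by probes and not by fragments, and the split varied with the choice of 0. With each array centred on its median fragment, 50.1% of 455 opposite-sign fragments were above 0 on replicate 1, and with each array centred on its probe mean, 46.3% of 447 were. Over all eligible fragments, replicate 1 was higher by a mean of 0.09 (SD over fragments 0.18), and it was higher in 69.3% of them. Levels above 0 were found in 1201 eligible fragments (47.2%) on replicate 1 and in 920 (36.2%) on replicate 2. The mean difference also varied with the processing, and was 0.01 with centring on the probe mean and -0.05 with normexp background correction. The normexp setting started from median signals, without detrending or lowess dye normalization. It added an offset of 50 to each channel, which narrows log ratios, so its sizes do not compare with the others.

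Among the 359 fragments above 0 on replicate 1, the median level was 0.11 on replicate 1 (quartiles 0.05 and 0.19, highest 0.58). On replicate 2 it was -0.10 (quartiles -0.17 and -0.05, lowest -1.03). The SD over all eligible fragments was 0.30 on replicate 1 and 0.26 on replicate 2, and medians near 0 follow from the choice by sign. The 78 fragments above 0 on replicate 2 had a median of -0.09 on replicate 1 (lowest -0.32) and of 0.05 on replicate 2 (highest 0.25). The array nearer to 0 was at a median distance of 0.05 from it in all 437, compared with 0.21 in the 842 fragments above 0 on both arrays and 0.16 in the 1264 below 0 on both. Only 10 opposite-sign fragments were farther than 0.2 from 0 on both arrays, all of them above 0 on replicate 1, whereas 90 were within 0.1 of 0 on both. Of all eligible fragments, 904 (35.5%) were farther than 0.2 and 188 (7.39%) within 0.1 on both arrays.

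**Figure D1:**
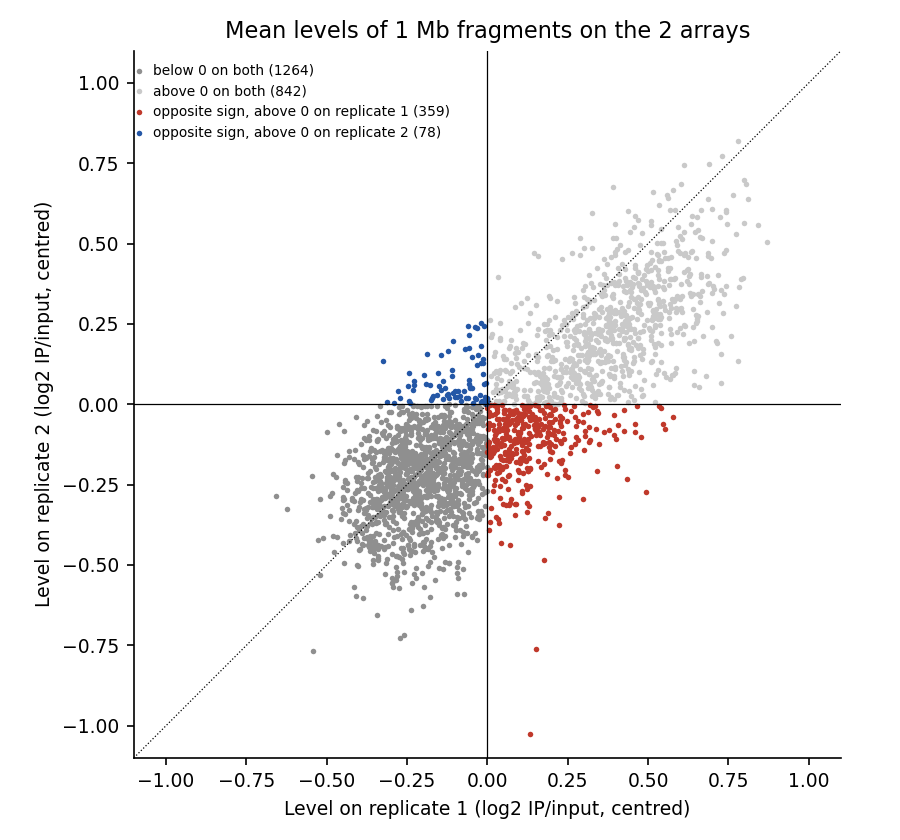
Mean level of each eligible 1 Mb fragment on replicate 1 (horizontal axis) and replicate 2 (vertical axis), in log2 IP over input centred on the array median. Points are fragments, colours mark the sign on the arrays, and the dotted line marks equal levels. The 437 opposite-sign fragments lie around the origin, with 359 below and to the right of it and 78 above and to the left.

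In the plot of levels on both arrays, the opposite-sign fragments join the clouds of fragments above 0 on both and below 0 on both without a gap. Across the 2543 fragments Pearson's r between the arrays was 0.815 and Spearman's rho 0.792, given as a description, since fragments share the arrays and are not independent.

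The 5 fragments above 0 on replicate 1 whose nearer array was farthest from 0 lie on 4 chromosomes. On chr11:26000001-27000000 the level was 0.30 ± 0.12 (SE over 49 probes) on replicate 1 and -0.29 ± 0.17 on replicate 2. On chr2:132000001-133000000 it was 0.49 ± 0.14 and -0.27 ± 0.21 over 42 probes, and on chr17:81000001-82000000 it was 0.43 ± 0.15 and -0.23 ± 0.22 over 46 probes. In each of these 3 fragments the level on replicate 1 was more than 2 SE above 0 and that on replicate 2 was less than 2 SE below it. Chromosome 5 holds the other two fragments. The level on chr5:13000001-14000000 was 0.25 ± 0.12 on replicate 1 and -0.23 ± 0.14 on replicate 2 over 58 probes. The level on chr5:6000001-7000000 was 0.22 ± 0.10 and -0.29 ± 0.24 over 41 probes. The error of replicate 2 was the larger one in all 5. Replicate 2 also had a wide range of single probes there, from -4.23 to 1.89 in the fragment of chromosome 11 and from -5.86 to 2.78 in that of chromosome 17.

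Single probes did not follow the sign of the mean throughout. In the fragment of chromosome 11, 29 of the 49 probes were above 0 on replicate 1 and 18 on replicate 2, and 32 had one sign on both arrays. In chr5:6000001-7000000 the median probe of replicate 2 was 0.18, although its mean was -0.29. There 23 of the 41 probes were above 0 on replicate 2, and the lowest was at -6.15. The difference between the rats over the same probes was 0.59 ± 0.15 (SE over probes) on chr11:26000001-27000000, 0.77 ± 0.22 on chr2:132000001-133000000 and 0.51 ± 0.23 on chr5:6000001-7000000.

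In the other direction, the 5 fragments farthest from 0 on the nearer array had smaller levels on that array. Over the 78 probes of chr12:39000001-40000000 the level was -0.19 ± 0.10 on replicate 1 and 0.16 ± 0.13 on replicate 2. Over the 85 probes of chr7:25000001-26000000 it was -0.14 ± 0.10 and 0.15 ± 0.15. Over the 91 probes of chr10:102000001-103000000 it was -0.32 ± 0.11 and 0.13 ± 0.11. The last of these has the strongest difference in this direction among all members, -0.46 ± 0.14 for replicate 1 minus replicate 2. For chr4:31000001-32000000 the levels were -0.12 ± 0.13 and 0.17 ± 0.18 over 42 probes, and for chr16:26000001-27000000 they were -0.11 ± 0.10 and 0.20 ± 0.15 over 57 probes. In the fragment of chromosome 4 the median probe was -0.08 on replicate 1 and -0.0060 on replicate 2, so the medians were not of opposite sign. Of these 5, only the fragment of chromosome 10 was more than 2 SE from 0 on either array, and that on replicate 1 alone.

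**Figure D2:**
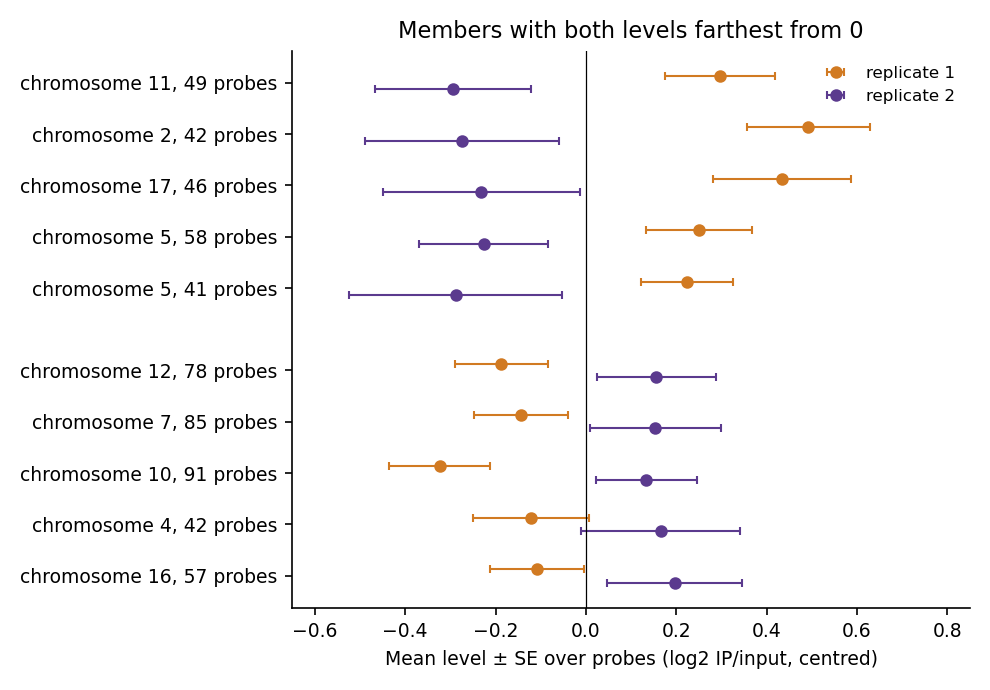
Mean level of the 5 opposite-sign fragments above 0 on replicate 1 (upper group) and the 5 above 0 on replicate 2 (lower group) whose nearer array was farthest from 0. Points are means over the probes of a fragment and bars are the SE over probes, on a log2 scale. The bars of both arrays are clear of 0 in 9 of the 10 fragments, and in that of chromosome 4 they reach 0.

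The dot plot of these 10 fragments shows levels on replicate 1 from -0.32 to 0.49 and on replicate 2 from -0.29 to 0.20. With normexp background correction, where levels are on a narrower scale, the difference between the rats changed sign in both fragments of chromosome 5. It was 0.07 in the fragments of chromosomes 11 and 2, 0.06 in that of chromosome 17 and -0.07 in that of chromosome 10. In those of chromosomes 7, 4 and 16 both arrays were below 0, with differences of -0.15, -0.14 and -0.09. In that of chromosome 12 the difference was -0.14 and the signs stayed opposite. With probes well above background only, the level on replicate 2 turned above 0 in the fragments of chromosome 17 (0.16) and chromosome 2 (0.08).

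The 3 members with the largest difference between the rats were all above 0 on replicate 1. The largest was on chr18:51000001-52000000, with 0.13 ± 0.16 on replicate 1 and -1.03 ± 0.40 on replicate 2. This fragment holds 21 probes, close to the minimum of 20, and its level on replicate 2 was the lowest of all eligible fragments. On chr7:37000001-38000000 the level was 0.15 ± 0.11 on replicate 1 and -0.76 ± 0.19 on replicate 2 over 63 probes, a difference of 0.91 ± 0.19. The third was the fragment of chromosome 2 given above. In the fragments of chromosomes 18 and 7 replicate 1 was within 2 SE of 0, and the level far from 0 was that of replicate 2. Its lowest single probes were at -5.22 and -5.57, in that order. With normexp background correction, whose log ratios are on a narrower scale, the differences of these fragments were 0.06 and 0.08. The latter fragment was then below 0 on both arrays.

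At the other end, members nearest to 0 on both arrays differed between the rats by far less than their error. Levels were -0.0031 ± 0.11 on replicate 1 and 0.0018 ± 0.14 on replicate 2 on chr4:177000001-178000000. They were -0.0020 ± 0.11 and 0.0074 ± 0.12 on chr2:54000001-55000000, and 0.0076 ± 0.09 and -0.0027 ± 0.11 on chr5:17000001-18000000. A shift of 0.01 of either array towards the other would take each of these 3 fragments out of the set. Just outside the rule, chr2:229000001-230000000 was above 0 on both arrays, with 0.08 ± 0.11 on replicate 1 and 0.0010 ± 0.14 on replicate 2. On chr8:30000001-31000000 both levels were below 0, with -0.00014 ± 0.13 and -0.14 ± 0.14. At the threshold on probes, the fewest probes in a member were 21, found in the fragment of chromosome 18 above and in chr14:112000001-113000000 (0.18 ± 0.25 and -0.35 ± 0.27). Between 18 and 20 probes no fragment of opposite sign was found, and lowering the minimum to 10 probes added 2.

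No opposite-sign fragment was farther than 2 SE over probes from 0 on both arrays. There were 3 with each array centred on its median fragment, 1 with normexp, 1 with probes well above background only and 0 before dye normalization. With the median probe at 0, 660 of all 2543 eligible fragments (26.0%) were beyond 2 SE on both arrays, 274 of them above and 386 below 0. Nothing is read from this contrast, since the rule takes levels on either side of 0. Beyond 1 SE on both arrays there were 46 of the 437, beside 1443 of all eligible fragments (56.7%). Of the 437, 86 (19.7%) were beyond 2 SE on replicate 1, 20 (4.58%) on replicate 2 and 331 (75.7%) on neither, where the shares of all eligible fragments were 56.7%, 34.1% and 35.2%. The median SE of an opposite-sign fragment was 0.11 on replicate 1 and 0.14 on replicate 2, about as large as the levels themselves. The SE covers the spread between probes of an array and not the spread between animals, because probes of a fragment are not replicates.

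The difference between the rats over the same probes was larger than 2 SE in 140 of the 437 (32.0%), compared with 350 of all eligible fragments (13.8%). Of the 140, 127 were higher on replicate 1 and 13 on replicate 2. After subtraction of the median difference of all eligible fragments, which was 0.09, the number fell to 78 (17.8%), with 43 higher on replicate 1 and 35 higher on replicate 2. The same subtraction left 248 (9.75%) of all eligible fragments, 89 of them higher on replicate 1 and 159 higher on replicate 2. These shares contain the choice of the members by sign.

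In limma's test of the mean of both arrays against 0, with Benjamini-Hochberg adjustment at 0.05 over 2731 fragments of chromosomes 1 to 20 and X, 20.9% of the fragments were called above 0 and 20.4% below 0 (41.3% together). The 2731 include fragments with fewer than 20 probes. Of the 437 opposite-sign fragments, 3 were called above 0 and 2 below 0, and nothing is read from this since the rule uses the same levels. At an unadjusted p under 0.05 there were 8, beside 1422 of all 2731 fragments (52.1%). limma gave each fragment a standard error of 0.10, so a call reflects the mean of both arrays and not the distance between them. The fragments called below 0 were those of chromosomes 18 and 7 with the largest differences. The 3 called above 0 fall outside the rule for named fragments and were singled out after their values were seen. They are chr1:103000001-104000000 (0.54 on replicate 1 and -0.0053 on replicate 2), chr7:43000001-44000000 (0.58 and -0.04) and chr16:15000001-16000000 (0.54 and -0.01). In all 3 a clearly positive level on replicate 1 stood beside a level on replicate 2 that was below 0 by less than 1 SE. With normexp background correction limma called 106 of the 2731 fragments (3.88%), and none of those that were then of opposite sign.

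To describe the opposite sign in separate probes, the probes of each fragment were split by position into odd and even ones. In the odd probes 567 of 2543 fragments (22.3%) were of opposite sign, and 180 of these (31.7%) were of opposite sign in the even probes as well. Among fragments with one sign in the odd probes, 18.5% were of opposite sign in the even probes. Nothing is read from this contrast, since fragments near 0 are more often of opposite sign in any set of probes. Divided by the distance of the mean of both arrays from 0 in the odd probes, chosen after these shares were seen, the shares were 35.6% of 219 fragments and 28.2% of 39 with one sign at up to 0.05, and 32.9% of 164 and 29.0% of 145 at 0.05 to 0.1. At 0.1 to 0.2 the shares were 27.3% of 150 and 22.2% of 491. They were 23.1% of 26 and 18.1% of 525 at 0.2 to 0.3, and 12.5% of 8 and 14.0% of 776 beyond 0.3. With the median fragment at 0 they were 28.1% and 24.6% at up to 0.05, and 28.9% and 30.1% at 0.05 to 0.1. With the probes split along the fragment they were 25.4% of 213 and 33.9% of 59 at up to 0.05, and 24.5% and 18.1% at 0.05 to 0.1. Both alternatives are given up to 0.1 only. The same direction in both sets was found for 134 of the 567 (23.6%).

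Of 420 fragments above 0 on replicate 1 in the odd probes, 121 were so again in the even probes, while 22 were opposite the other way, 162 were above 0 on both arrays and 115 below 0 on both. Their mean difference between the rats was 0.34 in the odd probes and 0.13 in the even probes, where all fragments had a mean of 0.09. Of 147 fragments above 0 on replicate 2 in the odd probes, 13 were so again and 24 turned to the other direction. Their mean difference of -0.25 became 0.03. These numbers varied with the choice of 0 and with the split. With the probes split along the fragment, 130 were above 0 on replicate 2 in the first set, of which 16 were so again and 12 turned. With each array centred on its median fragment, 295 fragments were above 0 on replicate 2 in the odd probes. Of these, 57 were so again and 20 turned to the other direction, with a mean difference of -0.05 in the even probes. With the same centring, 295 were above 0 on replicate 1 in the odd probes, of which 61 were so again and 26 turned. Their mean difference in the even probes was 0.07, beside 0.02 for all fragments. Over all fragments, the difference between the rats in odd and even probes had Pearson's r of 0.186 and Spearman's rho of 0.189, while r was 0.742 for the mean of both rats. With the first part of the probes along a fragment set against an equally large second part, 25.1% of 513 fragments were of opposite sign again, and 19.3% of those with one sign in the first set were.

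Within opposite-sign fragments, 63.0% of the 34271 probes had one sign on both arrays, compared with 63.2% of the probes of all eligible fragments. Around the fragment means, Pearson's r between the arrays was 0.336 over these probes and 0.315 over those of all eligible fragments, as a description over probes that share the arrays. In fragments above 0 on replicate 1, 56.1% of the probes were above 0 on replicate 1 and 49.5% on replicate 2. In fragments above 0 on replicate 2 these shares were 45.3% and 55.1%. Over all eligible fragments they were 49.8% and 49.9%, and the values of the members contain their choice by sign. The median probes were also of opposite sign in 249 of the 437 fragments (57.0%), beside 518 of all eligible fragments (20.4%). The median of replicate 1 had the sign of the mean in 386 (88.3%, beside 94.0% of all eligible fragments). That of replicate 2 did in 268 (61.3%, beside 85.1%). For replicate 2 this share was 54.3% in members above 0 on replicate 1 and 93.6% in those above 0 on replicate 2.

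Division into pieces of 200 kb with 5 or more probes gave 2112 pieces of opposite-sign fragments. Opposite signs were found in 44.1% of them, levels above 0 in both rats in 29.9% and levels below 0 in both rats in 25.9%, beside 27.4%, 32.5% and 40.2% over all eligible fragments. In fragments above 0 on both arrays, 23.4% of the pieces were of opposite sign and 70.5% were above 0 on both, and in fragments below 0 on both the shares were 24.2% of opposite sign and 67.3% below 0 on both. Of 388 members with 5 such pieces, 10 had all 5 of opposite sign (2.58%) and 25 had none (6.44%), beside 0.480% and 23.2% of all eligible fragments with 5 such pieces. At least 1 piece above 0 on both arrays and at least 1 below 0 on both, adjacent or not, were present in 271 of the 388 (69.8%), beside 878 of 2292 eligible fragments with 5 such pieces (38.3%). These shares contain the choice of the members, whose mean levels are near 0.

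The IP and input signals make up the levels that chose the members, so they are given as a description. Centred log2 input signals differed between replicate 1 and replicate 2 by a median of 0.0091 in fragments above 0 on replicate 1 and of 0.02 in those above 0 on replicate 2. Centred log2 IP signals differed by 0.19 and -0.21, in that order. Over all eligible fragments these medians were 0.01 for input and 0.04 for IP. On chr11:26000001-27000000 input was -0.47 on replicate 1 and -0.40 on replicate 2, while IP was -0.18 and -0.64. On chr10:102000001-103000000 input was -0.48 and -0.45, while IP was -0.81 and -0.26.

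The number of probes enters the rule through its minimum and the input signal through the level, so nothing is read from the following values. Opposite-sign fragments had a median of 74 probes (quartiles 54 and 99), between 56 for fragments above 0 on both arrays and 98 for those below 0 on both. Their median log2 input signal on replicate 1, relative to the array median, was -0.24, and also lay between -0.82 above 0 on both and -0.0071 below 0 on both. Both channels were well above background in both rats for a median of 80.2% of the probes, compared with 74.4% above 0 on both and 81.3% below 0 on both. The SD between probes had a median of 0.93 on replicate 1 and 1.24 on replicate 2, beside 0.92 and 1.21 for all eligible fragments. Levels farther than 1 from 0 were found for 26.8% of the probes of these fragments on replicate 1 and for 35.6% on replicate 2, beside 26.9% and 35.1% for the probes of all eligible fragments. The share of opposite sign was 18.5% among fragments with 20 to 39 probes, 19.4% with 40 to 59, 23.4% with 60 to 79, 16.6% with 80 to 99 and 10.6% with 120 or more.

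Along the chromosomes, the 437 fragments formed 327 runs of consecutive members, of which 245 were single fragments. The remaining 192 members lay in 82 runs of 2 or more, and 21 of these runs held both directions. The longest run was chr3:98000001-103000000, with 5 fragments that were all above 0 on replicate 1. Its levels ranged from 0.04 to 0.24 on replicate 1 and from -0.20 to -0.06 on replicate 2, and the means over its 333 probes were 0.11 and -0.15. The next was chr1:163000001-167000000 with 4 fragments and 493 probes, with means of 0.14 and -0.06. In chr4:175000001-179000000, the third by length and number of probes, the means were 0.08 and -0.04 over 362 probes, and 3 of its 4 fragments were above 0 on replicate 1. In the run of chromosome 3 only the last fragment was more than 2 SE from 0 on replicate 1, and none was on replicate 2.

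Some opposite-sign fragments lay where the profile passes through 0. Nothing is read from the following contrasts, since the members were chosen for levels on either side of 0. Of 427 with an eligible neighbour on each side, 98 (23.0%) lay between a fragment above 0 on both arrays and one below 0 on both, compared with 414 of 2476 (16.7%) for all eligible fragments. A further 189 (44.3%) had an opposite-sign neighbour, 64 lay between fragments above 0 on both and 76 between fragments below 0 on both. Over all eligible fragments, 30.7% had an opposite-sign neighbour, 18.5% lay between fragments above 0 on both and 34.1% between fragments below 0 on both. Of 352 members above 0 on replicate 1, 60 lay between fragments above 0 on both arrays and 50 between fragments below 0 on both. Of 75 above 0 on replicate 2, 4 and 26 did, in that order. At the ends of the chromosomes, 8 of 57 eligible fragments within 3 Mb of the start and 9 of 54 within 3 Mb of the end were of opposite sign (14.0% and 16.7%).

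**Figure D3:**
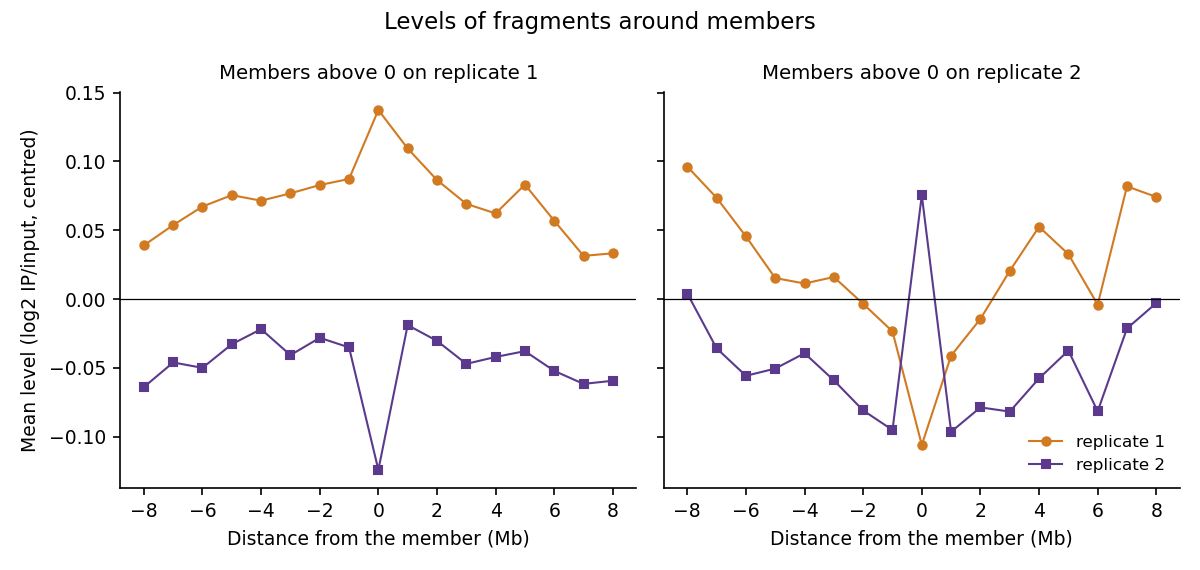
Mean level on each array in fragments at distances from -8 to 8 Mb from an opposite-sign fragment, in log2 IP over input centred on the array median, with members above 0 on replicate 1 on the left and those above 0 on replicate 2 on the right. Points are means over the fragments present at that distance (339 to 359 on the left and 72 to 78 on the right). The values at distance 0 are set by the choice of the members, and those at other distances include members among the neighbours.

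In the plot of neighbouring fragments, every fragment at distance 0 was chosen for its signs, and so were some of the neighbours, so values at all distances contain this choice. Of the fragments 1 Mb before and after, 26.7% and 25.9% were of opposite sign themselves beside members above 0 on replicate 1, and 19.5% and 23.7% beside those above 0 on replicate 2. Members above 0 on replicate 1 had mean levels of 0.14 on replicate 1 and -0.12 on replicate 2, a difference of 0.26. Fragments 1 Mb before and after them differed by 0.12 and 0.13, and those 8 Mb away by 0.10 and 0.09, beside 0.09 for all eligible fragments. Members above 0 on replicate 2 had a mean difference of -0.18, while fragments 1 Mb before and after them differed by 0.07 and 0.06, with replicate 1 higher. With each array centred on its median fragment, these neighbours differed by 0.0058 and -0.011, so their direction rests on the choice of 0. With the same centring, the neighbours of members above 0 on replicate 1 differed by 0.057 and 0.062, beside 0.026 for all eligible fragments.

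**Figure D4:**
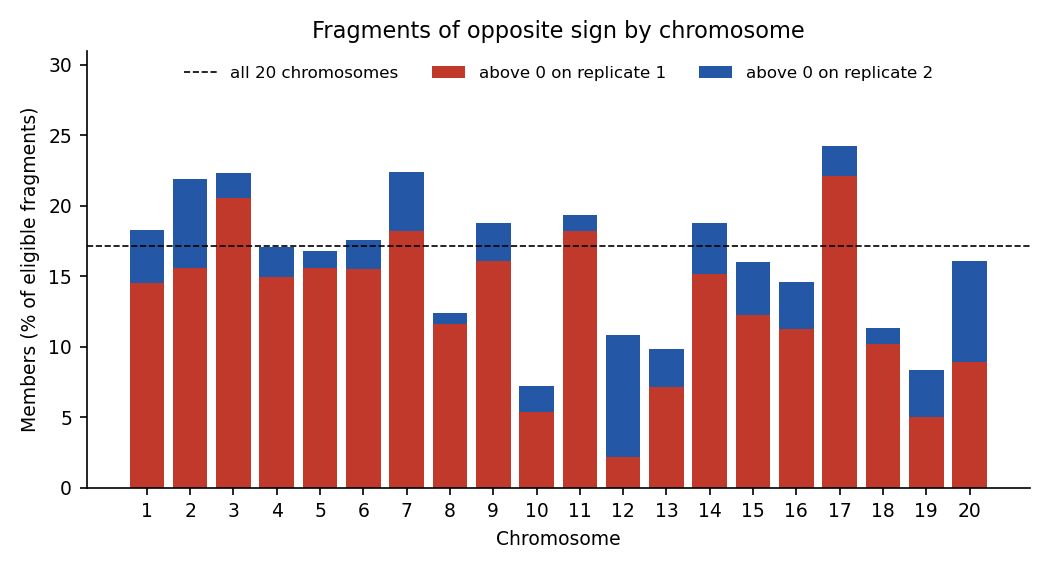
Opposite-sign fragments as a percentage of the eligible fragments of each chromosome, divided into those above 0 on replicate 1 (red) and those above 0 on replicate 2 (blue). The dashed line marks the share of 17.2% over all 20 chromosomes, and bars run from 7.21% on chromosome 10 to 24.2% on chromosome 17.

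Each of the 20 chromosomes held opposite-sign fragments, as the bar plot by chromosome shows. The highest shares were found on chromosome 17 (23 of 95, 24.2%), chromosome 7 (32 of 143, 22.4%) and chromosome 3 (38 of 170, 22.4%). The lowest were on chromosome 10 (8 of 111, 7.21%), chromosome 19 (5 of 60, 8.33%) and chromosome 13 (11 of 112, 9.82%). These shares were not tested. On chromosome 12 the directions were the reverse of the other chromosomes, with 1 fragment above 0 on replicate 1 and 4 above 0 on replicate 2. There the mean difference over all 46 eligible fragments was -0.05, and chromosome 12 was the only one with replicate 2 higher on average. This holds for the median probe at 0, since with the median fragment at 0 there were 4 such chromosomes (10, 12, 19 and 20) and with normexp background correction all 20. The differences on chromosomes 2, 5 and 11 were 0.12 each.

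**Figure D5:**
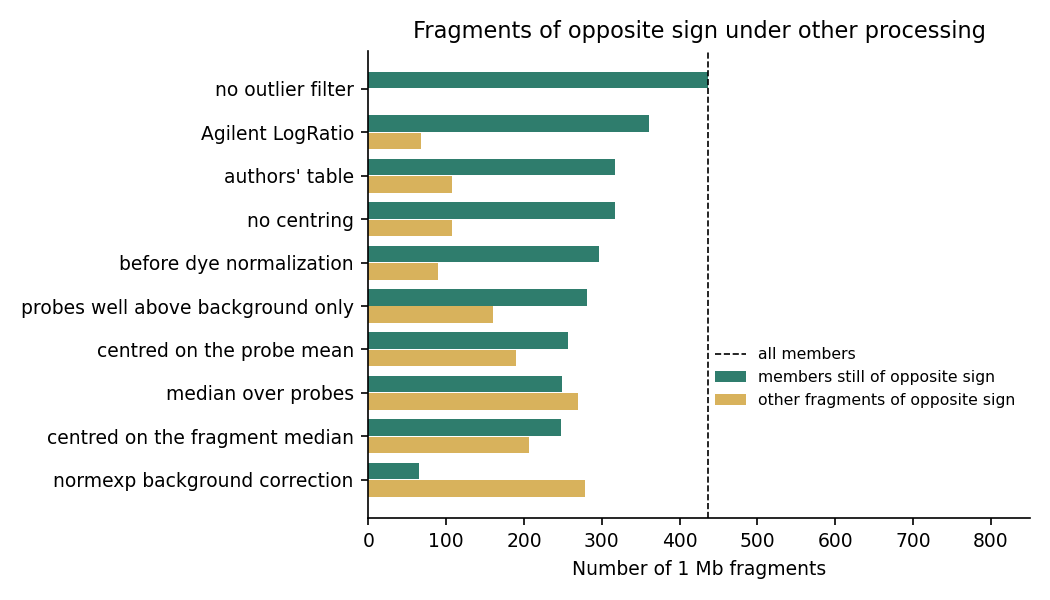
Number of 1 Mb fragments of opposite sign under each alternative processing, divided into the 437 members that were still of opposite sign (green) and other fragments (yellow), with the dashed line at 437. Counts of members run from 65 with normexp background correction to 436 without the outlier filter.

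Which fragments were of opposite sign varied with the processing far more than how many. As the bars of kept members show, 343 to 518 fragments were of opposite sign under 10 alternatives on the same grid (of which those without centring and with the table of the authors gave the same levels), but 248 of the 437 members (56.8%) were still so with each array centred on its median fragment, and 65 (14.9%) with normexp background correction. Among all eligible fragments, 17.9% were of opposite sign with each array centred on its median fragment and 13.5% with normexp background correction. Of the members above 0 on replicate 1, 187 of 359 remained with the median fragment at 0, and of those above 0 on replicate 2, 61 of 78. In all 10 alternatives 18 members were of opposite sign, 7 of them above 0 on replicate 1. Without normexp and centring on the median fragment, 113 members were of opposite sign in all 8 remaining alternatives. Among these 18 are the fragments named above on chromosomes 10, 11 and 12. Another is chr8:105000001-106000000, singled out after its values were seen, with 0.19 ± 0.11 on replicate 1 and -0.34 ± 0.19 on replicate 2 over 71 probes. Its difference of 0.53 ± 0.20 is among the larger ones.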

How the data were processed

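The authors scanned 1 array for each rat and read it with Agilent Feature Extraction 10.5.1.1, and the deposited intensity of each channel is background-subtracted, detrended and dye-normalized by lowess. The deposited log10 ratio, the log2 table of the authors for the series, which equals log2 of processed red over green and is not centred, the signals before dye normalization and the outlier flags (other values, per the file headers) were used for alternatives and filters. The normexp alternative started from the median signals and their background medians, without detrending or lowess. It added an offset of 50 to each channel, which narrows log ratios, so sizes under normexp do not compare with other settings.

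From the processed intensities log2(IP/input) was computed for 237974 spots that are not controls. After 305 spots with an outlier flag were dropped and spots were averaged, 235872 probes remained, and their array median was subtracted, with neither loess nor quantile normalization. On chromosomes 1 to 20 the 1 Mb grid gave 2570 fragments, of which 2543 had 20 or more probes. Coordinates are on rn4. IP signals were well above background in 86.4% (replicate 1) and 83.1% (replicate 2) of the spots, and input signals in 86.9% and 85.3%.

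Fragment means were fitted with an intercept in limma (lmFit, eBayes, two-sided). With 1 residual degree of freedom per fragment the spread was pooled over all fragments. Other values have no test. Members and lists were chosen with earlier results of these data known. Named fragments are, for each direction, the 5 members whose nearer level lies farthest from 0, the 3 longest runs, the 3 largest differences, the 3 members nearest to 0, the non-members nearest to the rule, and opposite-sign fragments with 18 to 21 probes. Genes and sequence of the fragments were not analysed here, since neither a genome nor an annotation of rn4 was used.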

Additional observations from a re-analysis of the deposited data

How the results depend on the processing

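The number of opposite-sign fragments stayed within 1.5 times 437 under 13 of 15 alternatives (no centring and the table of the authors are the same values), and it was 974 with 500 kb and 227 with 2 Mb fragments, which divide the genome into more and fewer units. The share above 0 on replicate 1 fell from 82.2% to 61.4% without centring and in the table of the authors, 70.6% with the LogRatio of Agilent, 74.7% before dye normalization, 59.8% with normexp, 73.5% with probes well above background only, 52.3% with the median over probes, 50.1% with centring on the median fragment and 71.7% with 500 kb fragments. It was 88.1% with 2 Mb fragments and turned below 50% with centring on the probe mean, at 46.3%. With normexp limma called 0 opposite-sign fragments in place of 5 (1 at an unadjusted p under 0.05), while its calls over all fragments fell from 1129 to 106, and the differences of chr5:13000001-14000000 and chr5:6000001-7000000 changed sign, to -0.0045 and -0.030. The share found again in other probes moved from 31.7% to 25.1% with a split along the fragment and to 27.8% with the median fragment at 0. Opposite-sign fragments of each setting beyond 2 SE on both arrays, checked under alternatives chosen after seeing the data, were 3 with the median fragment at 0, 1 with normexp and 1 with probes well above background only, in place of 0. The cause was not tested. Of 119 differences of 12 named fragments under alternatives, 103 stayed within their SE over probes, 14 moved farther and 2 changed sign. The differences under normexp, on its narrower scale, are among these. Counts between unlike neighbours stayed within 1.5 times.

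Leaving out a replicate could not be run, since opposite sign needs both arrays. No paired analysis was possible because both arrays belong to 1 group. Both channels were well above background in both rats for 184406 of 235872 probes, and with these alone 441 fragments were of opposite sign.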

Other observations

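Chromosome X was not among the chromosomes from which members were chosen. By the same rule, 58 of its 159 fragments with 20 or more probes (36.5%) were of opposite sign, 55 of them above 0 on replicate 1 and 3 above 0 on replicate 2. Replicate 1 was higher in 86.2% of the 159 fragments, by a mean of 0.22 (SD over fragments 0.19), compared with 0.09 (SD 0.18) on chromosomes 1 to 20. The mean difference of replicate 1 from replicate 2 was 0.09 for centred log2 input signals of chromosome X and 0.25 for IP signals, beside 0.02 and 0.05 on the other chromosomes. As on these, no opposite-sign fragment of chromosome X was farther than 2 SE over probes from 0 on both arrays. Both rats were male, and the mean centred log2 input signal of chromosome X was low, at -1.36 on replicate 1 and -1.44 on replicate 2. Its mean levels were 0.07 on replicate 1 and -0.15 on replicate 2, on either side of 0. The share of opposite sign on chromosome X is given for the median probe at 0 only. The difference between chromosome X and the other chromosomes was not tested.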
